A study of Homo sapiens with 105 samples.

Results

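The response of vaginal epithelial cells to Pam3CSK4 was set directly against their response to TNF-alpha. The cells were Vk2/E6E7, a line of human vaginal keratinocytes immortalized with papillomavirus E6 and E7, and every group was the same line harvested after 6 h. Pam3CSK4, a synthetic triacylated lipopeptide, was given at 10 μg/ml (6 arrays, replicates 1 to 6) and TNF-alpha, an inflammatory cytokine, at 40 ng/ml (5 arrays, replicates 1 to 5). These 11 of the 105 arrays of the series were compared over 54613 probesets, that is, all 54675 of the Affymetrix U133 Plus 2.0 array except the 62 controls. A sixth TNF-alpha column was left out because it equalled the mean of replicates 1 to 3 to within 7.67e-09 log2 units. Growth medium (GM, 53 arrays) served as the untreated background and MALP2, a diacylated lipopeptide (200 ng/ml, 6 arrays), as a further TLR2 ligand. The remaining groups (imiquimod, N-9, HEC and CMC) are not compared here and entered only the joint normalization and the shared estimate of the spread between arrays. As a model it is a single immortalized epithelial line, without the leukocytes or stroma of the tissue.

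Pam3CSK4 is recognised by a heterodimer of TLR1 and TLR2, which signals through the adaptor MYD88 to the NFκB and MAP kinase pathways. TNF-alpha binds TNFRSF1A, which recruits TRADD, and reaches the same NFκB and MAP kinase pathways by another route. NFκB switches on chemokines and cytokines together with its own inhibitors, such as IκBα (NFKBIA) and A20 (TNFAIP3), which end the response. In squamous epithelium the outermost cells build a cornified envelope from loricrin, involucrin and the small proline-rich (SPRR) proteins, and secrete antimicrobial proteins of the S100, defensin and ribonuclease families.

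To show what lies in front of some of the genes described here, the 250 bases before the transcription start are printed for 6 of them, from RefSeq (GRCh38.p14), each on its own strand from 5′ to 3′. SERPINA3 and RNASE7 had higher levels with Pam3CSK4, TNFAIP3, NFKBIA and CXCL10 had higher levels with TNF-alpha, and CCL20 had one of the largest differences from GM with both. Capitals mark every match to the NFκB consensus on either strand, matches at the same position on both strands counted once.
SERPINA3 (chr14:94612141-94612390, plus strand): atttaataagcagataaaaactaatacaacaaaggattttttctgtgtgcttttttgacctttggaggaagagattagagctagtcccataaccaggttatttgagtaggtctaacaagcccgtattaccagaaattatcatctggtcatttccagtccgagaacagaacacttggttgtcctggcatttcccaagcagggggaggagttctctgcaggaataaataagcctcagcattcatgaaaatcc
RNASE7 (chr14:21042112-21042361, plus strand): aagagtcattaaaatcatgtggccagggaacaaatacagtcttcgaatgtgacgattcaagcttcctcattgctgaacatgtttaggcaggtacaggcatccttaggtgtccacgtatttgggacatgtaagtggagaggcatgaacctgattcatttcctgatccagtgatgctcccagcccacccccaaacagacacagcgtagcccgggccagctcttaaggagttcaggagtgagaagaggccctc
TNFAIP3 (chr6:137867009-137867258, plus strand): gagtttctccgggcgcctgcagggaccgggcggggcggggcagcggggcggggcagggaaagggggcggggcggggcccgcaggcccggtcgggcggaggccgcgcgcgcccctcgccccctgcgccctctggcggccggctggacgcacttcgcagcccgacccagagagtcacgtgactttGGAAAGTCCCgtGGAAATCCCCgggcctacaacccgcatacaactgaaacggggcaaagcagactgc
NFKBIA (chr14:35404750-35404999, minus strand): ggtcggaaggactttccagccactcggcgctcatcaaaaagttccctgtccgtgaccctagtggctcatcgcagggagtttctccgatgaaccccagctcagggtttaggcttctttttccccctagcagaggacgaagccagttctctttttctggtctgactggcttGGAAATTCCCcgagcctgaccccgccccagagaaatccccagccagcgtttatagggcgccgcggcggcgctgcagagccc
CXCL10 (chr4:76023498-76023747, minus strand): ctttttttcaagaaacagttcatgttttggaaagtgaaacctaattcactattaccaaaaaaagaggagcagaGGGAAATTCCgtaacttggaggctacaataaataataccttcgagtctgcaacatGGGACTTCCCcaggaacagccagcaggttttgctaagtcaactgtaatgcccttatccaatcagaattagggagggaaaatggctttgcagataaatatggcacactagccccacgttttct
CCL20 (chr2:227813592-227813841, plus strand): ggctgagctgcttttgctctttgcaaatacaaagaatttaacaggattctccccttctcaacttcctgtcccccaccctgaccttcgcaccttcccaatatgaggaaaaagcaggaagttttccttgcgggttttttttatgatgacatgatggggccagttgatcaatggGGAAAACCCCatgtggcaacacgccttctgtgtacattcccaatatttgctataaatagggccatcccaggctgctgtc
The TNFAIP3 window held 2 matches, 67 and 55 bases before the start, and the CXCL10 window also 2, at 177 and 122 bases. NFKBIA and CCL20 held 1 each, at 81 and 79 bases, and the windows of SERPINA3 and RNASE7 held none. Among all 35116 windows of this length 9.96% held such a match. The interferon-stimulated response element, searched as TTTCNNTTTC, was found in 3.02% of all windows and in that of CXCL10, and the AP-1 site, searched as TGANTCA, in 6.57% of all windows and in that of RNASE7. These letters are a description of the windows and do not show that a factor binds there.

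No probeset passed the test between Pam3CSK4 and TNF-alpha. With limma on quantile normalized log2 values, fitted over 103 arrays with 1 mean per group, 0 probesets (0% of those tested) were higher with Pam3CSK4 and 0 were higher with TNF-alpha where a call asked for a fold change over 2 and an adjusted p under 0.05. At an unadjusted p under 0.05 there were 2787 (5.1%), of which 1312 (2.4%) were higher with Pam3CSK4 and 1475 (2.7%) higher with TNF-alpha. Under the same rule, and with the GM arrays shared between the comparisons, 321 probesets (0.588%) rose and 79 (0.145%) fell against GM with Pam3CSK4, 163 (0.298%) rose and 48 (0.0879%) fell with TNF-alpha, and 734 (1.34%) rose and 466 (0.853%) fell with MALP2. Between Pam3CSK4 and TNF-alpha the smallest adjusted p was 0.0857, shared by ATP1B1, SERPINA3 and CLEC2D. The median 95% interval of a difference reached 0.81 log2 units to either side, and 0.54 for probesets with a mean log2 level over 6. The labels call the arrays biological replicates without describing the cultures. The p-values of this fit rest on how all 103 arrays vary within their groups, 53 of them GM, not on the 11 compared arrays alone.

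The replicates of each treatment fell into 2 sets, numbers 1 to 3 and numbers 4 and over, and this division touches every result that follows. Deviations from the group mean correlated at a median of -0.327 between arrays of 1 treatment from different sets and of -0.037 within a set. Subtracting the group mean pulls correlations within a treatment below 0, so these 2 medians are read only against each other. The labels name no batch, and whether equally numbered sets of the 2 treatments were run together is not stated. Deviations of a Pam3CSK4 array and a TNF-alpha array correlated at a median of 0.088 within equally numbered sets and of -0.084 across sets. With the set taken as a block in a fit of the 11 arrays alone, a setting chosen after the values were seen and called the blocked fit here, 91 probesets (0.167%) were higher with Pam3CSK4 and 30 (0.0549%) higher with TNF-alpha under the same thresholds. Without the fold limit the blocked fit gave 219 (0.401%) and 94 (0.172%). With sets of 3 consecutive replicates of every group as a random block, 0 probesets passed in either direction in limma and 570 had an unadjusted p under 0.05. Every call that the blocked fit made is therefore lost under the random block, and this holds for each count from the blocked fit given for a gene list. The 2 fits make opposite assumptions. The blocked fit takes equally numbered sets of the 2 treatments as shared, and the random block takes them as separate. The labels do not settle which holds. Whichever holds, the blocked fit counts the arrays of a treatment within a set as independent, although each treatment has only 2 sets. The random block estimated a consensus correlation of 0.44 within sets. Adjusted p-values of the blocked fit therefore rest in large part on spread within sets and are given as a description.

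Technical measures of the 2 treatments overlapped. The deposited array median was 6.5 ± 0.11 (SD, n = 6) with Pam3CSK4 and 6.45 ± 0.16 (SD, n = 5) with TNF-alpha (exact two-sided permutation test, p = 0.574). The 3′ minus 5′ differences of ACTB and GAPDH, signs of RNA integrity, gave p = 0.327 and p = 0.446 in the same exact permutation test, and all 4 measures had an adjusted p of 0.574. The label of the cells was checked on markers. KRT5 and KRT14, keratins of basal keratinocytes, and SFN stood at log2 levels of 14.38 to 15.07 in both treatments, and the junction and epithelial markers DSG3, DSP, CDH1 and EPCAM between 12.3 and 14.74. KRT13, also among the 9 epithelial markers with a probeset, varied more, from 10.12 to 12.09 with Pam3CSK4 and from 7.17 to 11.43 with TNF-alpha. KRT19, another of the 9, is not described. The leukocyte markers PTPRC, LYZ, CD3D, TYROBP and NKG7 were dim, that is, under log2 6, in both treatments, and the remaining 6 of the 11 leukocyte markers had means of 6.01 to 7.38, near those in GM (6.05 to 7.31). Of 12 markers of fibroblasts and endothelium only 6 were dim in both treatments, and of 5 markers of melanocytes only 1. These 2 lists thus do not set the cells apart by the dim limit.

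Both receptor systems were measurable in part. TLR2 was at 9.69, 10.2 and 10.77 (lowest, median and highest log2 level) with Pam3CSK4 and at 9.7, 9.83, 9.85, 10.07 and 10.08 with TNF-alpha, against a GM median of 8.48. Its level thus overlapped between the treatments, with a difference of 0.30 ± 0.24 (SE) and a 95% interval from -0.17 to 0.77. Against GM it rose by 1.72 log2 units with Pam3CSK4 (limma, adjusted p = 3.83e-13) and by 1.42 with TNF-alpha (adjusted p = 2.47e-08). The partners TLR1 and TLR6 lay near or under the dim limit, with group means of 4.8 to 6.09. TNFRSF1A, the main TNF receptor, stood at 11.17 and 10.84 in the 2 treatments and passed the test against GM with neither (adjusted p from limma of 0.837 and 0.897). Of 20 members of the TLR2 receptor complex and its adaptors, 8 had a higher mean with Pam3CSK4 and 12 with TNF-alpha, and of 21 members of the TNF receptor complex 9 and 12. BIRC2, the ubiquitin ligase cIAP1 of that complex, was 12.29 to 12.53 on the TNF-alpha arrays, above all Pam3CSK4 arrays (11.95 to 12.18).

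**Figure D1:**
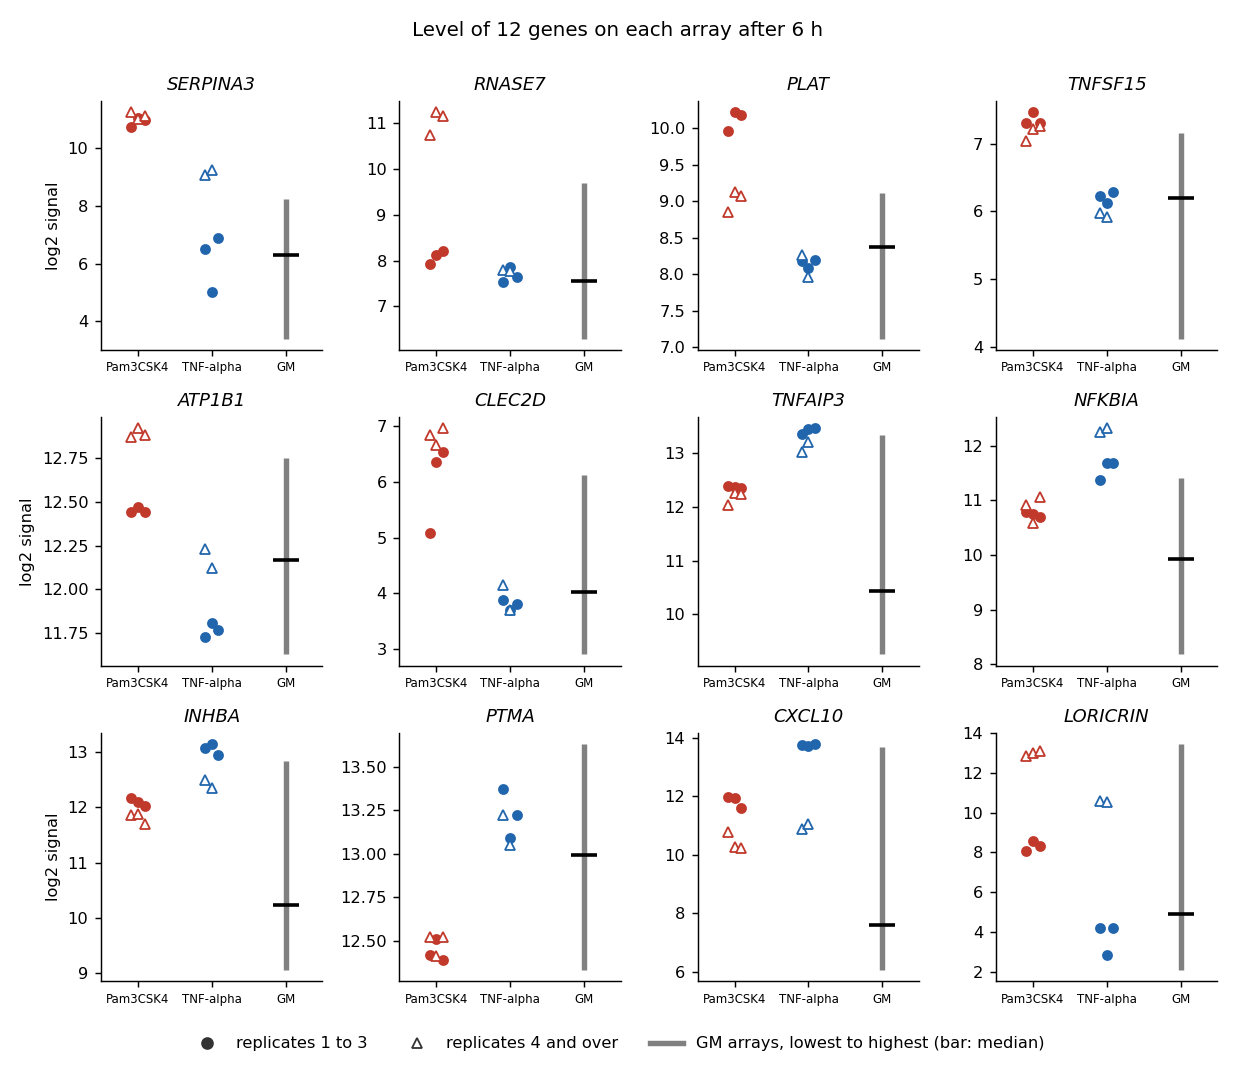
Log2 signal (vertical axes, a separate scale for each gene) of 12 genes on every Pam3CSK4 and TNF-alpha array, with the range and median of the GM arrays in grey. Filled circles are replicates 1 to 3 and open triangles replicates 4 and over. TNFAIP3, for example, lay between 13.01 and 13.46 with TNF-alpha and between 12.04 and 12.38 with Pam3CSK4.

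Among the 12 genes with the smallest p in favour of Pam3CSK4, the largest difference was that of SERPINA3, the acute-phase protease inhibitor α1-antichymotrypsin. Its log2 level was 10.74, 11.03 and 11.24 (lowest, median and highest) with Pam3CSK4 and 6.49, 5.03, 6.89, 9.07 and 9.23 with TNF-alpha. All Pam3CSK4 arrays were above all TNF-alpha arrays, as for 616 probesets (1.13%) in all, and the TNF-alpha arrays split by replicate set. The difference of 3.68 ± 0.76 (SE; 95% interval 2.18 to 5.19) had an adjusted p of 0.0857 in limma. It was 4.79 in replicates 1 to 3 and 1.97 in the later ones. Against GM (3.4 to 8.24), SERPINA3 rose by 5.12 log2 units with Pam3CSK4 (adjusted p = 7.53e-12), whereas the 1.43 with TNF-alpha had an adjusted p of 0.406. With MALP2 the same gene rose by 2.47 (adjusted p = 0.000713).

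RNASE7, a secreted antimicrobial ribonuclease, stood at 7.93, 8.12 and 8.21 in Pam3CSK4 replicates 1 to 3 and at 10.74, 11.23 and 11.15 in replicates 4 to 6. On the TNF-alpha arrays it was 7.54 to 7.85, and the GM median was 7.56. The arrays of the 2 treatments did not overlap, yet nearly all of the difference of 1.84 ± 0.42 (adjusted p = 0.191) came from the later replicates. It was 3.26 there and 0.41 in the earlier ones. With the spread of all groups the later difference had an adjusted p of 8e-04 in limma. That test counts arrays of 1 set as independent, in a split chosen after the values were seen. MUCL1, a small mucin-like secreted protein, had 4.73 to 6.34 in Pam3CSK4 replicates 1 to 3, 10.08 to 10.26 in replicates 4 to 6 and 4.04 to 4.8 with TNF-alpha. The change of the difference between sets (earlier minus later) was -2.85 ± 0.72 (SE) for RNASE7 and -5.23 ± 1.47 for MUCL1. Tested with the spread of all groups, it did not pass for either gene. LCE1B, a late cornified envelope protein, was 6.73 to 7.47 in the first 3 Pam3CSK4 replicates and 10.64 to 10.86 in the others, beside 6.87 to 7.36 with TNF-alpha.

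Other leading genes differed in both sets. TNFSF15, the TNF family cytokine TL1A, was 7.04 to 7.46 with Pam3CSK4 and 5.92 to 6.29 with TNF-alpha, without overlap, a difference of 1.16 ± 0.28 (adjusted p = 0.337). It was 1.15 in replicates 1 to 3 and 1.23 later, and the blocked fit gave an adjusted p of 0.00075, while a second TNFSF15 probeset differed by 0.26 only. ATP1B1, the β1 subunit of the sodium pump, was 12.44 to 12.92 against 11.73 to 12.23, a difference of 0.74 ± 0.15 (adjusted p = 0.0857) that was 0.68 and 0.71 in the 2 sets. Against GM it rose by 0.51 with Pam3CSK4 (adjusted p = 0.00152), while TNF-alpha gave -0.23 (adjusted p = 0.607). PLAT, tissue plasminogen activator, was 8.86 to 10.22 with Pam3CSK4 and 7.96 to 8.26 with TNF-alpha, that is, 1.97 apart in the first set and 0.91 in the later one. CLEC2D, the lectin-like ligand LLT1, was 5.08 to 6.96 against 3.71 to 4.15, so that it was dim on all 5 TNF-alpha arrays and on 1 Pam3CSK4 array, and a second CLEC2D probeset differed by 0.31 only.

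Of the remaining 5 of these 12 genes, PTPRK, a receptor tyrosine phosphatase, was 11.37 to 12.12 against 10.39 to 10.98, and SLC11A2, the iron transporter DMT1, was 9.09 to 9.75 against 8.42 to 8.82. MMP12, macrophage elastase, was 6.87 to 7.67 against 5.58 to 6.91, and TNFAIP2, a TNF-induced gene, 9.28 to 11.24 against 9.03 to 9.88, both overlapping. In spite of its name TNFAIP2 was higher with Pam3CSK4 in both sets (0.39 and 1.34), and against GM it rose with Pam3CSK4 (1.35, adjusted p = 2.52e-10) while TNF-alpha gave 0.42 (adjusted p = 0.387). JMY, a regulator of actin and p53, owed part of its difference of 1.53 to TNF-alpha replicate 2, which stood at 2.22 where the other TNF-alpha arrays were at 5.72 to 6.36. Without that array its difference was 0.77, and a second JMY probeset gave 0.47. All these had an adjusted p of 0.191 to 0.394 in limma.

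In the other direction the leading genes differed by less. PTMA, prothymosin α, a nuclear protein of dividing cells, was 12.39 to 12.52 with Pam3CSK4 and 13.05 to 13.37 with TNF-alpha, without overlap, a difference of -0.73 ± 0.19 (adjusted p = 0.47). Such a complete separation in favour of TNF-alpha was seen for 633 probesets (1.16%). PTMA fell by 0.53 against GM with Pam3CSK4 (adjusted p = 0.0126, but 0.155 with the random block), TNF-alpha gave 0.20 (adjusted p = 0.794), and a second PTMA probeset gave 0.11 between the treatments. KLHL35, a kelch-like protein, was 9.09 to 9.4 against 9.83 to 10, and fell by 0.71 against GM with Pam3CSK4 (adjusted p = 2.49e-05) with -0.10 for TNF-alpha (adjusted p = 0.904). HSD17B7, a sterol synthesis enzyme, was 9.87 to 10.32 with Pam3CSK4 and 10.37 to 11.33 with TNF-alpha.

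RECQL, a DNA helicase, was the gene with the smallest p in this direction (-0.55 ± 0.13, adjusted p = 0.344), at -0.91 in replicates 1 to 3 and -0.10 in the later ones, and its 3 other probesets differed by -0.13 to -0.09. CIRBP, a cold-inducible RNA-binding protein, ranged from 4.15 to 6.79 with Pam3CSK4 and from 6.56 to 7.2 with TNF-alpha, and its 3 other probesets differed by -0.31 to -0.01. KLHL5, SERPINI1 (neuroserpin), CALML4 and ADAMTS13, the protease of von Willebrand factor, differed by -0.94 to -0.76, and 1 of 4 other KLHL5 probesets had the opposite sign. STX6, BICD1 and GATA1 were dim with Pam3CSK4, with medians under log2 6, and 3 of 4 other probesets of both STX6 and BICD1 had the opposite sign.

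The NFκB feedback genes split in direction. TNFAIP3 was 12.04, 12.3 and 12.38 (lowest, median and highest) with Pam3CSK4 and 13.36, 13.45, 13.46, 13.01 and 13.2 with TNF-alpha. Every TNF-alpha array was above every Pam3CSK4 array, with a difference of -1.03 ± 0.34 (adjusted p from limma 0.766), which was -1.06 in replicates 1 to 3 and -0.94 later. The blocked fit gave an adjusted p of 0.00155. NFKBIA was 10.59, 10.77 and 11.06 with Pam3CSK4 and 11.38, 11.68, 11.69, 12.25 and 12.32 with TNF-alpha, again without overlap, at -0.85 in the first set and -1.43 in the later one. Both inhibitors rose against GM with either agent. TNFAIP3 rose by 1.90 with Pam3CSK4 and 2.93 with TNF-alpha, and NFKBIA by 0.96 and 2.02. With MALP2, TNFAIP3 rose by 2.97 (limma, adjusted p = 7.04e-18) and NFKBIA by 1.37 (adjusted p = 0.000214). The higher TNFAIP3 level was thus not particular to TNF-alpha. With the random block the adjusted p of NFKBIA with Pam3CSK4 went from 0.0417 to 0.217.

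NFKBIZ, the nuclear IκBζ that activates secondary NFκB targets, went the other way. It was 10.64 to 10.98 with Pam3CSK4 and 10.07 to 10.32 with TNF-alpha, a difference of 0.66 ± 0.30 (0.65 and 0.62 in the 2 sets). Against GM it rose in limma by 1.76 with Pam3CSK4 (adjusted p = 4.27e-09) and by 1.10 with TNF-alpha (adjusted p = 0.00406). MALP2 gave 2.16 (adjusted p = 2.1e-13). Of the 20 NFκB subunits, inhibitors and feedback genes, 9 had a higher mean with Pam3CSK4 and 11 with TNF-alpha, and their median difference was -0.05, beside -0.01 over all probesets. The subunits NFKB1 and RELB differed by 0.07 and -0.21. Against GM 9 of the 20 rose with each agent (limma, adjusted p under 0.05, no fold limit). Of all probesets 1.31% did so with Pam3CSK4 and 0.526% with TNF-alpha. Under the random block 8 of the 20 rose with Pam3CSK4 and 7 with TNF-alpha, beside 229 and 110 of all 54613 probesets. In the blocked fit, without a fold limit, 1 of the 20 was higher with Pam3CSK4 (NFKBIZ) and 2 with TNF-alpha (TNFAIP3 and NFKBIA).

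**Figure D2:**
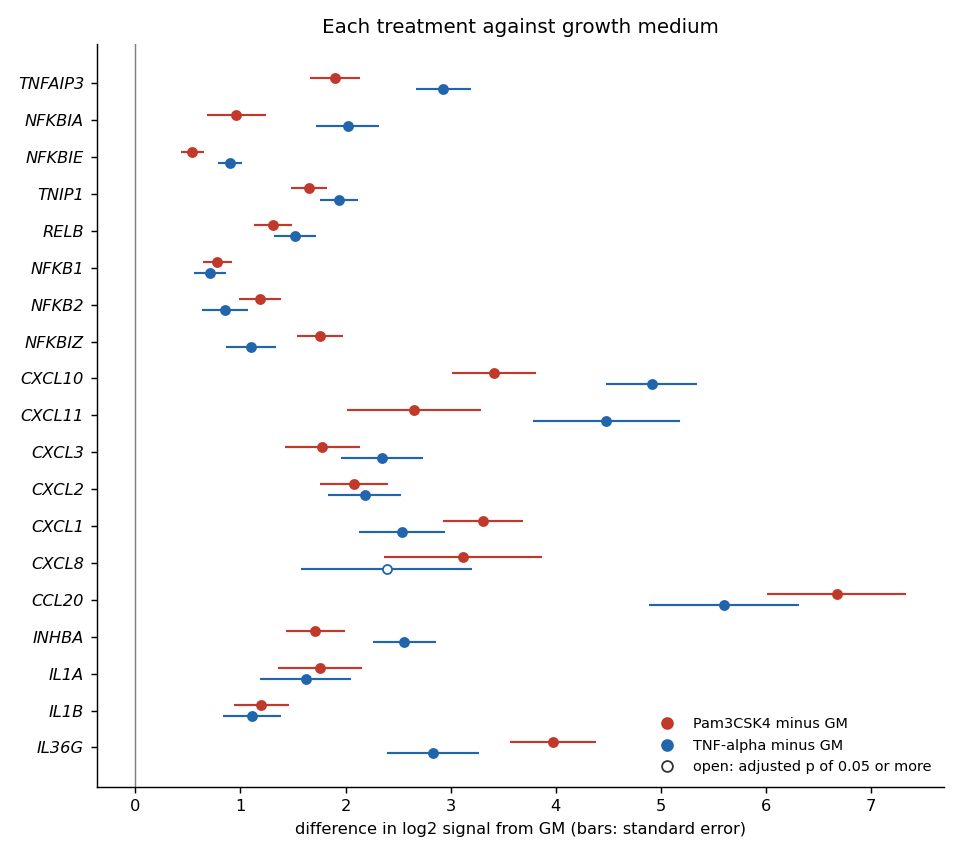
Difference in log2 signal from GM (horizontal axis) for 19 NFκB regulators, chemokines and cytokines, red for Pam3CSK4 and blue for TNF-alpha, with bars of 1 standard error and open symbols where the adjusted p was 0.05 or more. The 2 treatments share their GM arrays. CXCL10 lay at 3.41 with Pam3CSK4 and 4.91 with TNF-alpha, and CCL20 at 6.67 and 5.60.

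Chemokines went in both directions. CXCL10 and CXCL11, interferon-inducible ligands of CXCR3, were higher with TNF-alpha. CXCL10 stood at 11.98, 11.94 and 11.6 in Pam3CSK4 replicates 1 to 3 and 13.74, 13.73 and 13.79 in TNF-alpha replicates 1 to 3, and at 10.24 to 10.79 against 10.88 and 11.05 in the later ones. The 2 treatments were thus apart within each set and overlapped only across sets, with a difference of -1.50 ± 0.56 (adjusted p = 0.866). CXCL11 differed by -1.83 ± 0.91 in the same manner (-2.2 and -0.69). CCL20, a ligand of CCR6, was 11.74 to 12.65 with Pam3CSK4 and 11.42, 11.58, 11.65, 10.26 and 10.75 with TNF-alpha, all lower, though in the first set by a mean of 0.29 only. CXCL8, the neutrophil attractant interleukin-8, was 12.67 to 12.83 against 11.47 to 12.47, likewise without overlap.

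Of the CXCR2 ligands, CXCL1, CXCL2 and CXCL3 had mean differences of opposite sign in the 2 sets. CXCL1 gave -0.16 in replicates 1 to 3 and 1.75 later, CXCL2 gave -0.73 and 0.86, and CXCL3 gave -1.63 and 0.99. The change between sets (earlier minus later) was -1.58 ± 0.88 (SE) for CXCL2 and -2.62 ± 0.96 for CXCL3. It did not pass the test for either. CXCL14, a homeostatic chemokine of epithelium, was 11.6 to 13 with Pam3CSK4, 6.96 to 7.56 in TNF-alpha replicates 1 to 3 and 12.89 and 13.19 in TNF-alpha replicates 4 and 5, so its difference of 2.71 came from the first set alone. GM spanned 2.26 to 14 for CXCL14. Of 19 chemokines, 8 rose against GM with Pam3CSK4 (1.31% of all probesets) and 7 with TNF-alpha (0.526%). Under the random block 6 rose with each agent, beside 229 and 110 of all 54613 probesets. By their brightest probesets none of the 19 passed between the 2 treatments in limma or in the blocked fit, but second probesets of CXCL8 (1.09, adjusted p = 0.00666) and CXCL11 (-1.57, adjusted p = 0.0213) passed in the blocked fit.

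Among cytokines and growth factors, INHBA, the activin A subunit, was higher with TNF-alpha on all arrays (12.34 to 13.14 against 11.7 to 12.16). The difference was -0.85 ± 0.39 (adjusted p = 0.962 in limma, 0.0146 in the blocked fit). On the MALP2 arrays INHBA was 12.5 to 13.42. IL36G, an epidermal interleukin-36, was 10.34 to 12.06 with Pam3CSK4 and 9.51 to 10.88 with TNF-alpha, higher in both sets (0.82 and 1.22; adjusted p of the blocked fit 0.00666). The epithelial alarmins IL1A and IL1B differed by 0.14 and 0.09, with intervals that span 0, and each rose against GM with both agents. ICAM1, the adhesion ligand of leukocyte integrins, was 10.78 to 11.16 against 9.73 to 10.62 without overlap (0.71 ± 0.36). Its rise against GM was 2.19 with Pam3CSK4 and 1.48 with TNF-alpha. BCL2A1, an NFκB-dependent survival factor of the BCL2 family, rose by 4.71 and 3.72 and a difference of 0.99 ± 0.49.

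Late differentiation genes mostly had higher means with Pam3CSK4. Of the 41 cornified envelope and late differentiation genes with a probeset of their own, 40 had a higher mean with Pam3CSK4, with a median difference of 1.59 beside -0.01 over all probesets, and KRT2 (-0.32) was the exception. An unadjusted p under 0.05 was reached by 17 of them, where 2.4% of all probesets did so in that direction, and none passed the adjusted threshold. For 0 of the 41 did all Pam3CSK4 arrays lie above all TNF-alpha arrays, as levels also differed widely between sets. Loricrin (LORICRIN), the main envelope protein, was 8.09, 8.56 and 8.34 in Pam3CSK4 replicates 1 to 3 and 4.2, 2.84 and 4.18 in the same TNF-alpha replicates, which were dim. In the later replicates it was 12.83, 13 and 13.11 against 10.6 and 10.55. LORICRIN spanned 2.08 to 13.45 on the GM arrays and 2.78 to 10.9 on the MALP2 arrays. Involucrin (IVL) was 11.93 to 12.06 against 8.47 to 8.88 in the first set, and 13.83 to 13.96 against 13.11 and 13.13 in the later one.

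Within the sets 32 of the 41 were higher with Pam3CSK4 in both, with medians of 1.29 in replicates 1 to 3 and 0.87 later. Without a fold limit, 13 of them were higher with Pam3CSK4 and 0 higher with TNF-alpha in the blocked fit, beside 0.401% and 0.172% of all probesets, and 0 under the random block. These were the envelope proteins SPRR2B, SPRR2C, SPRR2G, SPRR3, LCE3D, CRCT1 and LORICRIN, the kallikrein proteases KLK6 and KLK7, the suprabasal keratin KRT1, the lipid transporter ABCA12 and the transcription factors ZNF750 and KLF4. Against GM, 17 of the 41 rose with Pam3CSK4 and 0 with TNF-alpha (limma, adjusted p under 0.05), beside 1.31% and 0.526% of all probesets. Under the random block 8 and 0 did so, beside 229 and 110 of all 54613 probesets. SPRR2B, for example, was 3.78 above GM with Pam3CSK4 (adjusted p = 2.39e-05) and 2.19 with TNF-alpha (adjusted p = 0.138), and 11.71 to 11.85 against 10.24 to 10.56 between the treatments in replicates 1 to 3. With MALP2 SPRR2B rose by 4.41 against GM (limma, adjusted p = 1.11e-07), while LORICRIN gave 1.76 (adjusted p = 0.45). GM itself ranged from 6.35 to 14.27 for SPRR2B, and probesets of the SPRR2 family may share signal between its near-identical members. KLK5, another kallikrein, was high throughout and differed by 0.89 ± 0.27 (adjusted p = 0.655), and neither agent moved it past the test against GM.

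**Figure D3:**
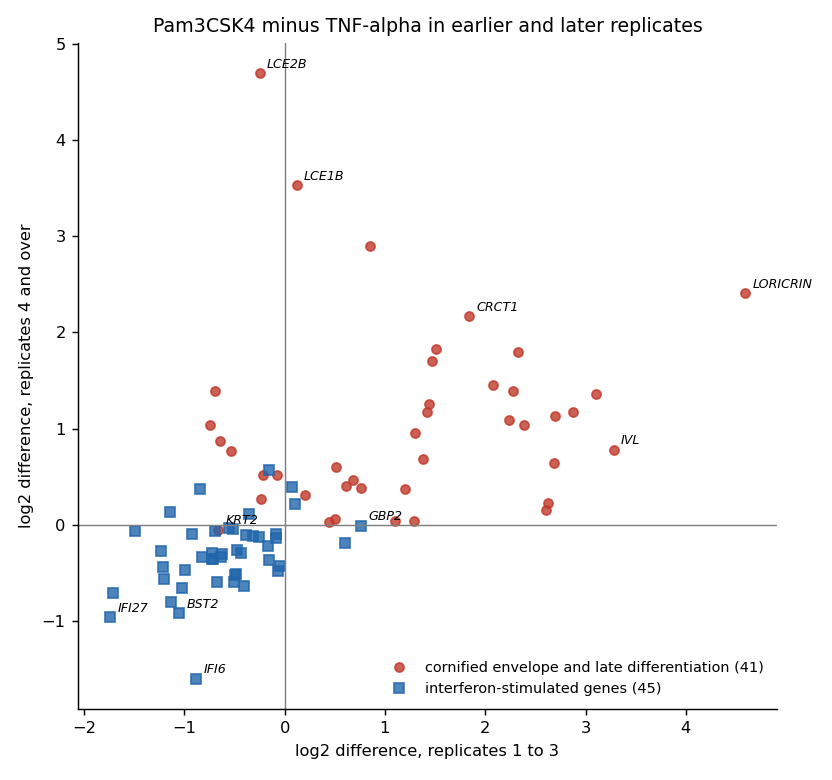
Pam3CSK4 minus TNF-alpha difference in log2 signal in replicates 1 to 3 (horizontal axis) and in replicates 4 and over (vertical axis), 1 point a gene. Of the 41 cornified envelope and late differentiation genes (red circles), 32 were above 0 in both sets, and of the 45 interferon-stimulated genes (blue squares), 37 were below 0 in both.

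Other keratins also differed. KRT13, the keratin of stratified non-cornified mucosa, was 10.12, 10.47 and 10.67 in Pam3CSK4 replicates 1 to 3 against 7.21, 7.17 and 7.19 with TNF-alpha, but 11.72 to 12.09 against 11.43 and 11.21 later. KRT23, an acidic keratin, differed by 2.85 ± 1.16 and passed in the blocked fit (2.39, adjusted p = 0.00172). KRT15, a keratin of basal and progenitor cells, was 8.25 to 8.62 in the first TNF-alpha set and 10.48 and 10.69 in the later one, beside 10.55 to 11.41 with Pam3CSK4. It fell by 1.98 against GM with TNF-alpha (adjusted p = 0.00372), with -0.29 for Pam3CSK4 (adjusted p = 0.841). KRT5 and KRT14 differed by -0.04 and 0.03.

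Antimicrobial and acute-phase genes shared the direction in part. Of 27 members, 19 had a higher mean with Pam3CSK4 and 8 with TNF-alpha, with a median of 0.66. An unadjusted p under 0.05 was reached in limma by 6, all higher with Pam3CSK4, beside 2.4% of all probesets in that direction. S100A7 (psoriasin) was 13.19, 13.2 and 13.19 in Pam3CSK4 replicates 1 to 3 against 8.84, 8.64 and 8.74 with TNF-alpha, and 14.79 to 14.86 against 14.42 and 14.45 later. GM spanned 7.85 to 14.75 for S100A7. S100A12 was apart in both sets (2.85 and 1.9; adjusted p of the blocked fit 0.00082). SERPINB4, a squamous cell serpin, was 9.37 to 11.9 against 6.77 to 10.31, a difference of 2.52 ± 0.88. SERPINA1, α1-antitrypsin, differed by 1.06 ± 0.49 and rose against GM with both agents (2.61 and 1.55), although the TNF-alpha call was lost with the random block (adjusted p = 0.429). SLPI and SERPINB1, inhibitors of neutrophil proteases, differed by -0.01 and -0.13. Against GM 14 of the 27 rose with Pam3CSK4 (1.31% of all probesets) and 3 with TNF-alpha (0.526%). Under the random block 10 and 1 did so, beside 229 and 110 of all 54613 probesets.

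The interferon-stimulated genes were mostly higher with TNF-alpha. Of 45 members 42 had a higher mean with TNF-alpha, with a median of -0.65, and 37 were higher with TNF-alpha in both sets (medians -0.55 and -0.29). An unadjusted p under 0.05 was reached by 4 of them in favour of TNF-alpha, beside 2.7% of all probesets, and none passed in limma. IFI27 was 10.45 to 10.55 in Pam3CSK4 replicates 1 to 3 against 12.15 to 12.43 with TNF-alpha, and 8.25 to 9.11 against 9.48 and 9.59 later. The later TNF-alpha arrays were below the earlier Pam3CSK4 arrays, so the groups overlapped as wholes. BST2, the antiviral protein tetherin, was the single member without overlap (10.29 to 11.36 against 11.41 to 12.28).

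In the blocked fit, without a fold limit, 8 of the 45 were higher with TNF-alpha and 0 higher with Pam3CSK4, beside 0.172% and 0.401% of all probesets, and 0 passed under the random block. The 8 were BST2, ISG15, IFITM1, IFITM2, IFI27, IFI6, HERC5 and IFI35. Of these none had passed against GM with either agent, and IFI6 stood at 11.18 and 12.55 beside 11.33 in GM. With MALP2 the mean of IFI6 was 12.76 and that of IFI27 11.48, where TNF-alpha gave 11.17 for IFI27. Against GM, 8 of the 45 rose with Pam3CSK4 (1.31% of all probesets) and 15 with TNF-alpha (0.526%). Under the random block 3 and 8 did so, beside 229 and 110 of all 54613 probesets. Among those that rose without the block were GBP1, a guanylate-binding protein, and RIGI, a sensor of viral RNA, with both. GM spanned 6.2 to 11.97 for IFI27 alone. Class I antigen presentation genes were also mostly higher with TNF-alpha, 17 of 19 with a median of -0.22, but no member had an unadjusted p under 0.05. TAP1, the peptide transporter, differed by -0.68 ± 0.43. IRF1, a transcription factor of the interferon response, was 9.16 to 9.51 with TNF-alpha and 8.57 to 9.07 with Pam3CSK4, without overlap. RefSeq listed promoter windows for 37 members of the interferon-stimulated list. The interferon-stimulated response element was in 26 of these 50 windows (52%), beside 3.02% of all windows. As the list was made of interferon-stimulated genes, this share says nothing on the difference between the treatments.

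**Figure D4:**
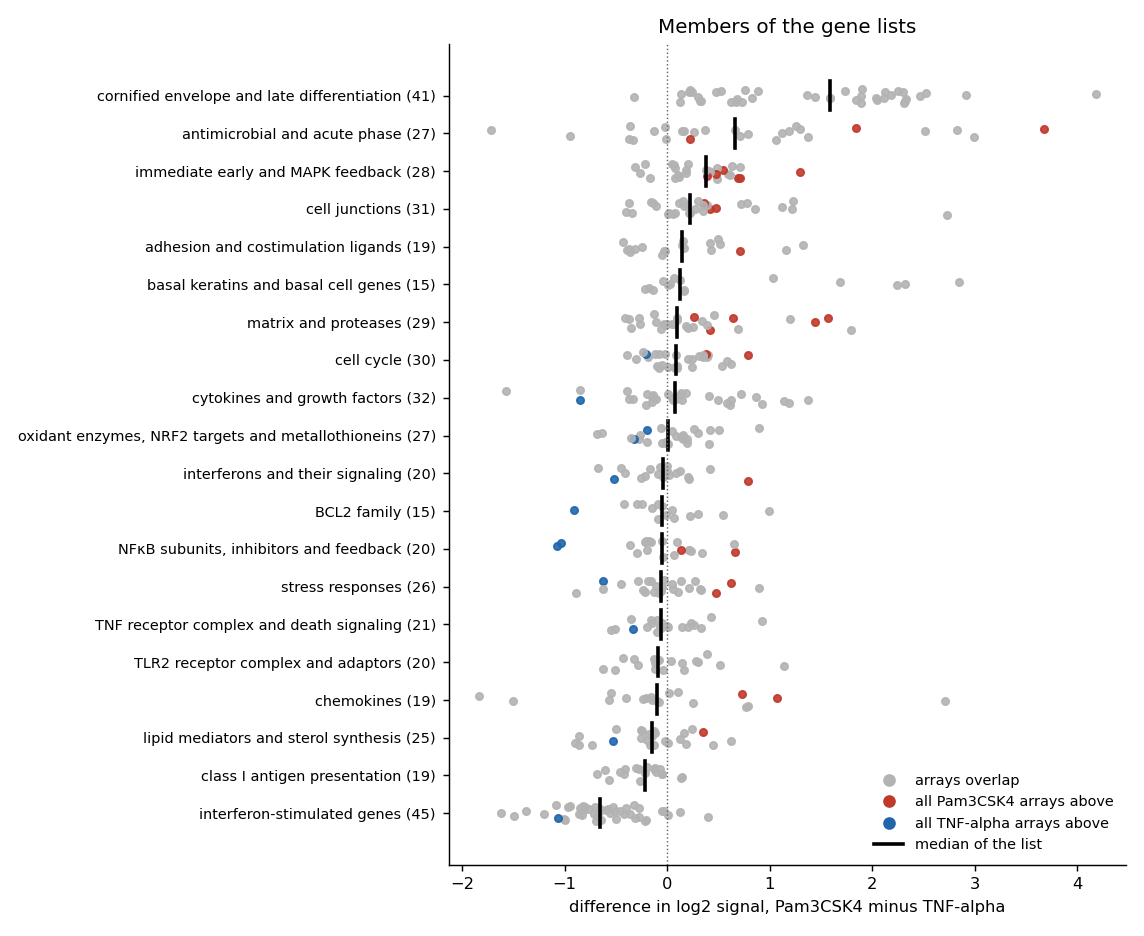
Pam3CSK4 minus TNF-alpha difference in log2 signal (horizontal axis) of the members of 20 gene lists, 1 point a gene and the number of members in brackets, with the list's median as a black line. Red and blue points are genes whose arrays did not overlap between the treatments. The cornified envelope list has the highest median (1.59) and the interferon-stimulated list the lowest (-0.65).

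Immediate early genes and MAP kinase feedback genes, which respond quickly to growth and stress signals, mostly had higher means with Pam3CSK4. Of 28 genes of this list, 24 had a higher mean with Pam3CSK4 (median 0.38), 18 in both sets, and for 6 every Pam3CSK4 array was above every TNF-alpha array, beside 1.13% of all probesets. These were the transcription factors EGR3, JUN and MYC and the genes DUSP1, IER2 and IER5. JUN was 12.11 to 12.59 against 11.46 to 12.09, a difference of 0.69 ± 0.29, and MYC 13.44 to 13.95 against 13 to 13.36, a difference of 0.55 ± 0.23. Only DUSP1, the phosphatase that silences MAP kinases, and IER5 rose against GM with Pam3CSK4 (1.40 and 0.48, the second with an adjusted p of 0.141 under the random block), and 0 of the 28 did with TNF-alpha. A second DUSP1 probeset gave -0.30 between the treatments. In the blocked fit, without a fold limit, 5 of the 28 passed, all higher with Pam3CSK4 (0.401% of all probesets), and 0 passed under the random block.

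Matrix genes and proteases had a median of 0.10, and for 5 of 29 all Pam3CSK4 arrays were above all TNF-alpha arrays, beside 1.13% of all probesets. These were MMP3, PLAT, TNC, COL4A2 and CTSC. Stromelysin-1 (MMP3) was 8.23 to 9.98 against 7.08 to 7.65, in both sets (2.12 and 1.12; adjusted p of the blocked fit 0.00918). TNC, the matrix protein tenascin-C, was 12.93 to 13.36 against 12.18 to 12.82, with a second probeset at a difference of 0.07. MMP13, collagenase-3, was 5.23 to 6.89 against 2.8 to 5.7, dim on every TNF-alpha array. MMP9, gelatinase B, rose with both against GM (3.55 and 2.86) and overlapped between them. HMOX1, heme oxygenase, was 9.05 to 10.59 against 8.5 to 9.53 and rose against GM with Pam3CSK4 (1.03, adjusted p = 0.000593), with 0.13 for TNF-alpha (adjusted p = 0.932). Of the sterol synthesis enzymes HMGCS1 and LSS, with differences of -0.86 and -0.53, 1 of 2 further LSS probesets had the opposite sign.

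Of the 20 genes that the study selected on these same arrays, 17 had a probeset of their own, and as that selection used these samples it is no independent evidence. Against GM 13 of the 17 rose with each agent (1.31% and 0.526% of all probesets). Under the random block 11 and 10 did so, beside 229 and 110 of all 54613 probesets. OLR1, the oxidized LDL receptor, rose by 4.70 and 4.36, and its arrays were 12.84 to 13.1 with Pam3CSK4 and 12.46 to 12.8 with TNF-alpha. PRDM1, the transcription factor Blimp-1, was 8.6 to 9.8 against 9.7 to 10.55 (-0.97 ± 0.41). Against GM it passed the limma test with TNF-alpha (1.81, adjusted p = 9.64e-05) and with MALP2 (2.03, adjusted p = 9.64e-08). Pam3CSK4 gave 0.84 (adjusted p = 0.118). PTGS2, cyclooxygenase-2, had differences of opposite sign in the 2 sets, at -1.41 and 0.58. The change between sets (-1.99 ± 1.41, SE) did not pass the test. G0S2, a lipase inhibitor, was 12.22 to 13.26 against 12.63 to 14.29.

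Whether the difference between the treatments itself differed between the sets was tested with the spread of all groups. This interaction passed for 2 probesets (0.00366%). One, for RHBDL2, a rhomboid protease, was 6.92 to 7.66 in Pam3CSK4 replicates 1 to 3, 3.21 to 3.28 in the later ones, 3.5 to 5.39 in TNF-alpha replicates 1 to 3 and 7.69 and 6.56 in the later ones (adjusted p = 2.81e-05). Brighter RHBDL2 probesets differed by 0.12 and -0.13 between the treatments. The other names several genes and is not described.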

How the data were processed

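Affymetrix U133 Plus 2.0 arrays measured the RNA of Vk2/E6E7 cells. The deposited values are log2 signals per probeset, made by the authors. MAS5 and GCOS 1.3 stand in the submitters' processing notes, RMA in GeneSpring in the study's methods, and which produced these values is not settled here. The log2 values were quantile normalized over 103 arrays in R 4.3.3 and fitted with limma 3.58.1 with 1 mean per group over 54613 probesets after leaving out 62 controls. A call needed an adjusted p under 0.05 (Benjamini-Hochberg) and a fold change of more than 2. TNF-alpha replicate 6, the mean of replicates 1 to 3, was left out, as was GM replicate 52, whose highest correlation with any array was 0.049 where other arrays had at least 0.836. No column of a sample was otherwise unused. Groups came from the labels.

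Of all probesets 41097 named 1 gene, 1801 several and 11777 were without an entry in the platform annotation. Genes of lists were read by their brightest probeset. Named are the 12 genes with the smallest p in each direction, since none was called. Each was read by its probeset with the smallest p among those with the brighter group mean over log2 6. Also named are, from each list, the 3 members that differed most, with receptors and genes of the study. Other members were named after their values were seen. The members and lists were chosen with earlier results of these data known. Scripts were tested on simulated data. The alternatives were no quantile normalization, an offset of 16, a filter on dim probesets, other sets of arrays, blocks, an analysis of variance as in the study and the omission of each replicate. Promoters came from RefSeq (GRCh38.p14), and figures from Python 3.11.15 with matplotlib 3.10.9. The number of arrays limits the precision, and a signal of one probeset cannot be set against that of another.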

Additional observations from a re-analysis of the deposited data

Results flagged for a closer look

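Of 176 groups of arrays (88 genes in each of the 2 treatments), 7 held 1 array set apart from the rest by Dixon's test, where chance gives about 1 in 20. The value given is the gap to the nearest array as a share of the group's range. JMY in TNF-alpha replicate 2 stood at 2.22 with the nearest array at 5.72 (0.845 of the range), and CLEC2D in Pam3CSK4 replicate 1 at 5.08 with the nearest at 6.36 (0.68). KLHL5 in TNF-alpha replicate 3 was at 8.96 below 9.13 (0.742), and KLHL35 in the same array at 10 above 9.87 (0.734). GAPDH in Pam3CSK4 replicate 5 was at 14.18 below 14.27 (0.71), CXCL3 in the same array at 9.45 above 9.18 (0.645), and MMP9 in Pam3CSK4 replicate 6 at 13.23 below 13.43 (0.662).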

How the results depend on the processing

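The count of 0 probesets in each direction (limma, 2787 at an unadjusted p under 0.05) was also 0 with a filter on dim probesets, with all 105 arrays, with a random block and in replicates 4 and over alone. Without quantile normalization, and likewise with an offset of 16 added to the linear signal, 2 were higher with Pam3CSK4 (SERPINA3 and CLEC2D) and 0 with TNF-alpha. The 11 arrays alone gave 11 and 6, with the set as a block 91 and 30. Replicates 1 to 3 alone gave 333 and 217, and with the spread of all groups 7 and 2, as against 6 and 1 for replicates 4 and over. The analysis of variance gave 462 and 276, but its p asks whether any of the groups differ. Those counts are therefore no test between Pam3CSK4 and TNF-alpha. Omission of 1 array gave 0 to 4 higher with Pam3CSK4 and 0 with TNF-alpha; the calls came without Pam3CSK4 replicate 1 (4, among them TNFAIP2, CLEC2D and RNASE7) and without TNF-alpha replicate 4 (1, SERPINA3). The cause was not tested. Of members of gene lists 1 passed without quantile normalization. Against GM, 134 probesets were lower with Pam3CSK4 and 113 with TNF-alpha without quantile normalization, in place of 79 and 48. With the random block 145 were higher and 11 lower with Pam3CSK4, and 77 higher and 5 lower with TNF-alpha, in place of 321, 79, 163 and 48.

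The alternatives were followed for 88 genes, not for every gene described, and CXCL2 was not among them. Of 2103 values for these 88 genes, 1978 kept their direction and side of the threshold. A further 114 passed it, 40 of them in the analysis of variance, and 11 turned direction. These were CXCL1 at -0.16 in replicates 1 to 3, and in replicates 4 and over CXCL14 at -0.23, CXCL3 at 0.99, PTGS2 at 0.58 and TNIP1 at 0.01, each in both fits of these replicates, and GAPDH at 0 without TNF-alpha replicate 2 (from -0.07 to 0 over the omissions of 1 array).

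With the replicate number as a block, 0 probesets were higher in either direction. Same-numbered arrays of the 2 treatments correlated at 0.073 to 0.133 in their deviations, not all over 0.1 as asked here of a pairing, so no pairing was assumed, and 7 of 10 arrays correlated best with their own number, a hint from the data. The block changed no call of a named gene. The median half-width of a 95% interval, 0.54 log2 units for brighter probesets, limits what the fit over 103 arrays resolves.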
